A study of Mus musculus with 50 samples.

Results

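The genes described here encode subunits of RNA polymerases I, II and III. They were chosen by symbol: each row of the deposited count table whose Ensembl identifier belongs to a protein-coding mouse gene with a name starting Polr1, Polr2 or Polr3 and a letter. The rule found 28 of 21647 genes in the table, namely 5 Polr1 genes (Polr1a to Polr1e), 13 Polr2 genes (Polr2a to Polr2m) and 10 Polr3 genes. All 28 had enough reads to be tested. The rule reads only the symbol, so subunits named otherwise, such as Cd3eap of polymerase I, are left out. This group of genes was picked with earlier results of these data known.

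The data are mRNA sequencing libraries of CD8+ T cells, the T cells that become killer cells, taken from the spleens of WT mice and of knockout mice (KO). Both were 10 weeks old, with the strain background given in the labels as C567BL/6J, and each library is tied by its label to 1 numbered mouse. The cells were isolated with magnetic anti-CD8a beads and cultured on plate-coated anti-CD3e with soluble anti-CD28, each at 2 ug/ml, which stand in for the antigen receptor signal and the co-stimulatory signal. RNA was taken from the same 5 mice per genotype without activation (0h) and 2h, 6h, 12h or 24h into it, which gives 50 libraries in 10 groups of 5. The KO label describes whole animals, so a difference between genotypes may come from the T cells or from what they met in the animal, and these cannot be told apart here.

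As background, RNA polymerase I makes the precursor of the large ribosomal RNAs, polymerase II makes messenger RNA, and polymerase III makes transfer RNA, 5S ribosomal RNA and other small RNAs. In each of them the a and b subunits form the catalytic core. Polr1c and Polr1d sit in both polymerase I and polymerase III, and Polr2e, Polr2f, Polr2h, Polr2k and Polr2l sit in all of them, so a gene's name gives only the polymerase it was first assigned to. The remaining subunits belong to 1 enzyme, and Polr2m (Gdown1) is a polymerase II associated protein. A resting T cell is small and makes little ribosome; in the first day after stimulation it grows before it divides, and growth needs ribosomal and transfer RNA. Polr3g and Polr3gl encode alternative forms of the same polymerase III subunit, of which 1 is present in each enzyme molecule; Polr3g is known from stem cells and proliferating cells and Polr3gl from differentiated tissues.

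Promoter sequence was read for 22 of the 28 genes from RefSeq (GRCm38.p6), as the 250 bases before each annotated start. Polr2h and Polr2m had 2 entries each, which gives 24 promoters. The following windows belong to Polr3g and Polr3gl, whose levels moved in opposite directions, and to Polr3e, which was called lower at 2h in both genotypes. Each is printed 5′ to 3′ on the strand of the gene. Capitals mark a motif found by letter search on both strands: the ETS core CGGAAG (seen here as its reverse complement) in Polr3g, chr13:81711014-81711263, minus strand; the E-box CACGTG in Polr3gl, chr3:96594182-96594431, minus strand; and GGTTCGA, the core of the tRNA B box, an internal promoter element that polymerase III itself uses, in Polr3e, chr7:120917528-120917777, plus strand.
Polr3g: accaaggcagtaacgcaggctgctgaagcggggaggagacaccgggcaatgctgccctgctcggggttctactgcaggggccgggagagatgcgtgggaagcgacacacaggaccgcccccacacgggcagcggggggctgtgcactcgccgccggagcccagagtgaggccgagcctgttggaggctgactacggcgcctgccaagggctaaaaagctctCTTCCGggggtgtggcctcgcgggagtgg
Polr3gl: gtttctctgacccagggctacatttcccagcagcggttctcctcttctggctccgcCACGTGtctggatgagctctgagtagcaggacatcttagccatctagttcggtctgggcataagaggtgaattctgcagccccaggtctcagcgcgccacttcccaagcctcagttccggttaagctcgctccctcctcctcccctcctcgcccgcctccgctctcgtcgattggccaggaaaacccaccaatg
Polr3e: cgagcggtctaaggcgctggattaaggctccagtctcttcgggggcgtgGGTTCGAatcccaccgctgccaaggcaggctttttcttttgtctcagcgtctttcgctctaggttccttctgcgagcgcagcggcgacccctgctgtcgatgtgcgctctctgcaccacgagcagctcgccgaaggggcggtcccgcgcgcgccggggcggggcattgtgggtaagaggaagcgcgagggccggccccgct
The motifs end 23, 188 and 194 bases before the annotated starts of Polr3g, Polr3gl and Polr3e. None of the searched motifs contains another. The B box core was found in 249 of 32851 promoters of this length (0.758%), and among the subunit genes in Polr3e (4.17% of 24 promoters). RefSeq places a leucine tRNA gene, n-TLaag4, at chr7:120917517-120917598, so that the Polr3e window starts inside it and the marked B box core lies within that tRNA gene. The ETS core was in 10 of the 24 promoters of these genes (41.7%), against 13.6% of all promoters and 17.8% of promoters of genes in the count table: those of Polr1c, Polr2f, Polr2h, Polr2i, Polr2j, Polr2m, Polr3b, Polr3c, Polr3f and Polr3g. The E-box was in 2 of 24 (8.33%; Polr3c and Polr3gl), against 6.02% of all promoters. A match of letters is a description of the sequence and does not show that a protein binds there.

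Libraries held between 9571625 and 31293872 counted reads (median 23548632). Levels are given as CPM, read counts brought to a common library size with TMM scaling between libraries. The libraries of WT mice 1 and 4 stood apart from all others: the summed level of 5 markers of immature thymocytes was 1209 and 914 CPM at 0h against 49.6 to 80.8 in the other WT mice and 32.4 to 88.0 in KO mice, and the summed level of 5 cell-cycle genes was 4075 and 3291 against 87.3 to 130 and 196 to 759. The 5 markers of CD8 T cells were present in all libraries. At 0h, WT mouse 3 and KO mouse 3 also stood apart, with 23.8% and 14.8% of their reads in the 50 most abundant genes. The 5 B-cell markers were higher in KO mice at 0h (2740 to 6177 CPM) than in WT mice (380 to 3308), and at 12h they were 743 to 1378 against 441 to 833. Counts of genes in comparisons that include WT mice are therefore given with and without WT mice 1 and 4, and so are many of the values of single genes. Marker levels also moved with time: in KO mice the median summed level of the B-cell markers was 4190, 3957, 2393, 1035 and 534 CPM from 0h to 24h, that of the CD8 T-cell markers 5185 at 0h and 2006 at 2h, and that of the cell-cycle genes 263, 53.8 and 2556 at 0h, 6h and 24h. In WT mice the B-cell median went from 2383 CPM at 0h to 491 at 24h. The part of these features in each difference was not tested. In bulk RNA, fewer cells of a type and less RNA per cell cannot be told apart.

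Most polymerase subunit genes were called higher at 6h of activation than at 0h in both genotypes. The step from 2h to 6h was not tested. In KO mice, 19 of 28 subunit genes were higher at 6h than at 0h and 2 were lower, against 26.8% and 22.4% of all 13294 genes tested. By 12h the KO counts were 23 higher (27.8% of all genes) and 1 lower (25%), and by 24h they were 23 (30.7%) and 1 (28%). In WT mice, 16 were higher and 3 lower at 6h (20.2% and 19.7% of all genes), 16 and 3 at 12h (19.3% and 20.2%), and 10 and 1 at 24h (19.9% and 24.2%). Leaving out WT mice 1 and 4, the WT counts were 20 and 3 at 6h (28.6% and 31.2%), 20 and 3 at 12h (28% and 32.2%), and 15 and 1 at 24h (32.5% and 32%). In KO mice the same fit gave 21 and 3 at 6h (31.7% and 33%), 24 and 1 at 12h (32.7% and 34.4%), and 25 and 1 at 24h (36.7% and 34.5%). With all mice, the direction was the same and past the threshold in both genotypes for 16 genes at 6h: 15 rose and Polr3gl fell. The share of all genes called the same way in both genotypes was not taken at any time. The median log2 change of the 28 genes at 6h was 0.85 in KO mice and 0.55 in WT mice, where the median of all genes was -0.04 and -0.05. The same mice supply the 0h libraries for every later time, so the times are not independent comparisons. Without WT mouse 5, 12 WT genes passed at 6h and 12 at 12h, and without WT mouse 2, 12 passed at 12h; at 24h, 7 passed without either mouse. The fit estimates the spread from WT and KO libraries together. With only the 10 libraries of a comparison in the fit, far fewer WT genes passed at 6h and 12h. Polr3g and Polr3gl still passed at both times.

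At 2h the picture was mixed. In KO mice 5 subunit genes were higher (20.3% of all genes) and 4 lower (19.6%), and in WT mice 2 were higher (14%) and 5 lower (16.2%), shares of the same order as those of all genes. With library totals in place of TMM scaling the KO split was 3 higher and 6 lower and the WT split 3 and 3. The counts at 2h without WT mice 1 and 4 were 8 higher and 7 lower in KO mice (26.2% and 31.4%) and 6 and 8 in WT mice (21.9% and 27.7%). Without WT mouse 1 alone, 15 KO genes passed. The WT count at 2h fell to 3 or 4 when any 1 of the KO mice, or WT mouse 2, 3 or 5, was left out. Genes called in both genotypes at 2h were Polr1c and Polr3f, which rose, and Polr2g, Polr3e and Polr3gl, which fell.

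**Figure D1:**
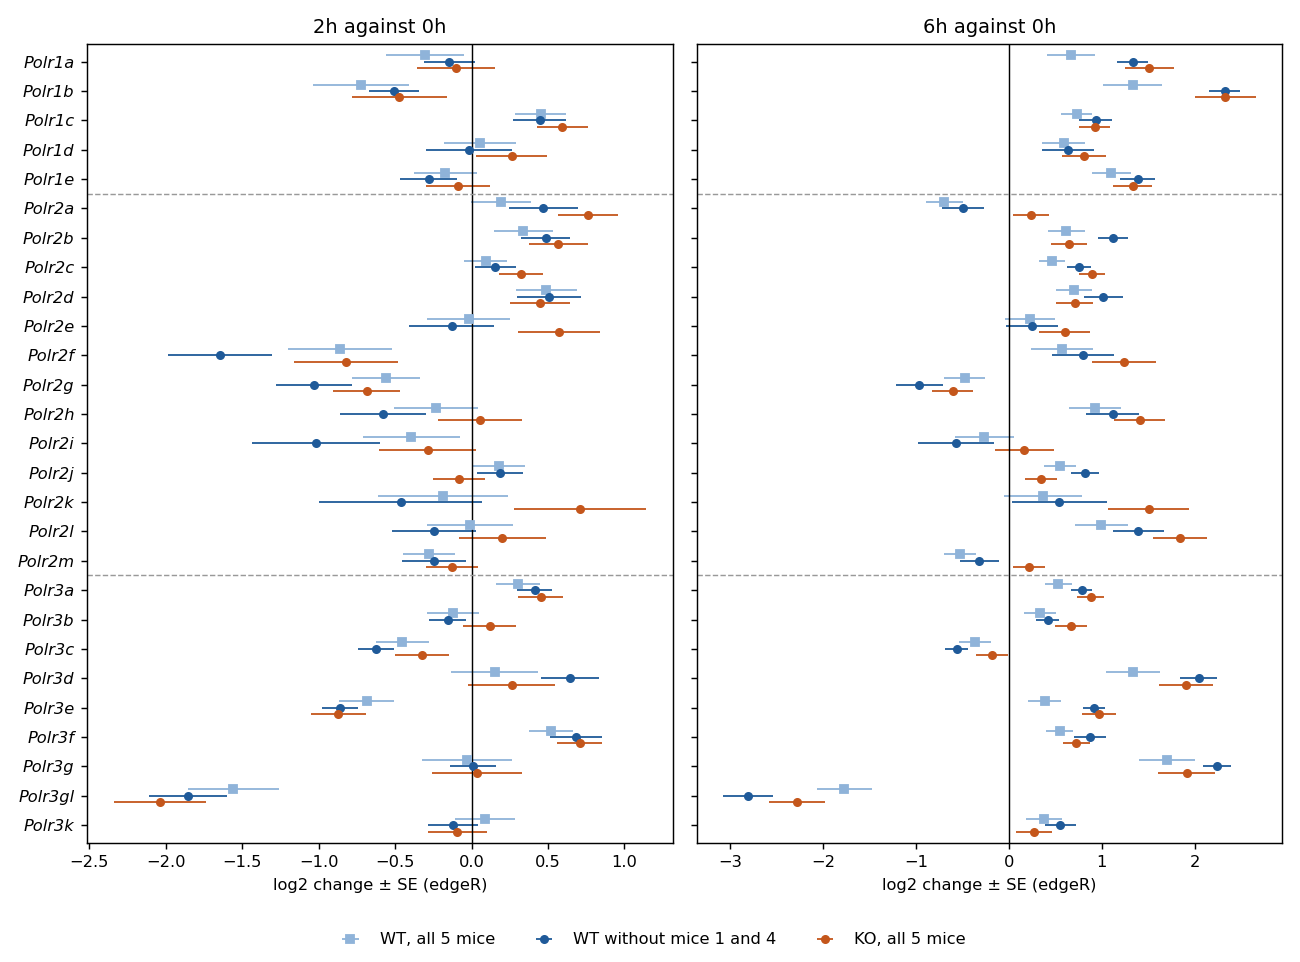
Change in level of the subunit genes reported here at 2h (left) and 6h (right) against 0h, on a log2 scale (horizontal axis), with genes grouped by polymerase; points are the edgeR estimates for WT (all 5 mice), WT without mice 1 and 4, and KO, and bars are 1 SE. Among the KO points at 6h, Polr1b (2.33) lies farthest to the right and Polr3gl (-2.28) farthest to the left.

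With all mice in the fit, the 5 Polr1 genes were all called higher by 6h, whichever the genotype. For WT libraries the same call was made for 6 of 13 Polr2 and 5 of 10 Polr3 genes, against 20.2% of all genes. For KO libraries it was made for 7 and 7, where the share was 26.8%. Called lower were Polr2a, Polr2m and Polr3gl among WT mice (19.7% of all genes), and Polr2g and Polr3gl among KO mice (22.4%). The WT rise of Polr1a was seen in 3 of 5 mice, and its call was lost in 10 of 19 alternatives. As a description, the mean log2(CPM + 1) of each group was followed in each mouse. In KO mice the Polr1 mean changed by 0.05 ± 0.12 (SD, n = 5) at 2h and by 1.38 ± 0.15 at 6h, 1.39 ± 0.16 at 12h and 1.11 ± 0.14 at 24h. The Polr2 mean changed by 0.65 ± 0.06 at 6h, 0.84 ± 0.11 at 12h and 0.92 ± 0.12 at 24h, so it was highest at the last time. The Polr3 mean was below its 0h level at 2h in 5 of 5 KO mice (-0.25 ± 0.08) and 5 of 5 WT mice (-0.19 ± 0.07), and in KO mice it was above it by 0.66 ± 0.11 at 6h and 0.45 ± 0.08 at 24h. With library totals in place of TMM scaling the 2h change of the Polr3 mean was -0.42 ± 0.06 in KO mice and -0.15 ± 0.10 in WT mice, with 1 WT mouse above its 0h level. The Polr3 mean includes Polr3gl, which went from 35.0 to 8.53 CPM at 2h in KO mice (group means). Other Polr3 genes went both ways there: Polr3a and Polr3f rose (1.37 and 1.63 times), and Polr3c and Polr3e fell (0.8 and 0.547 times). The mean without Polr3gl was not taken. The rise of the Polr1 mean exceeded that of the Polr2 mean at 6h by 0.74 (range 0.62 to 0.87 over 5 KO mice), and at 24h by 0.19. In WT mice the same difference at 6h was 0.49 ± 0.61, above 0 in 4 of 5 mice. Mice 1 and 4 differed from the other WT mice: the Polr1 mean at 6h changed by -0.50 and 0.30 in these mice and by 1.11 to 1.59 in the others.

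**Figure D2:**
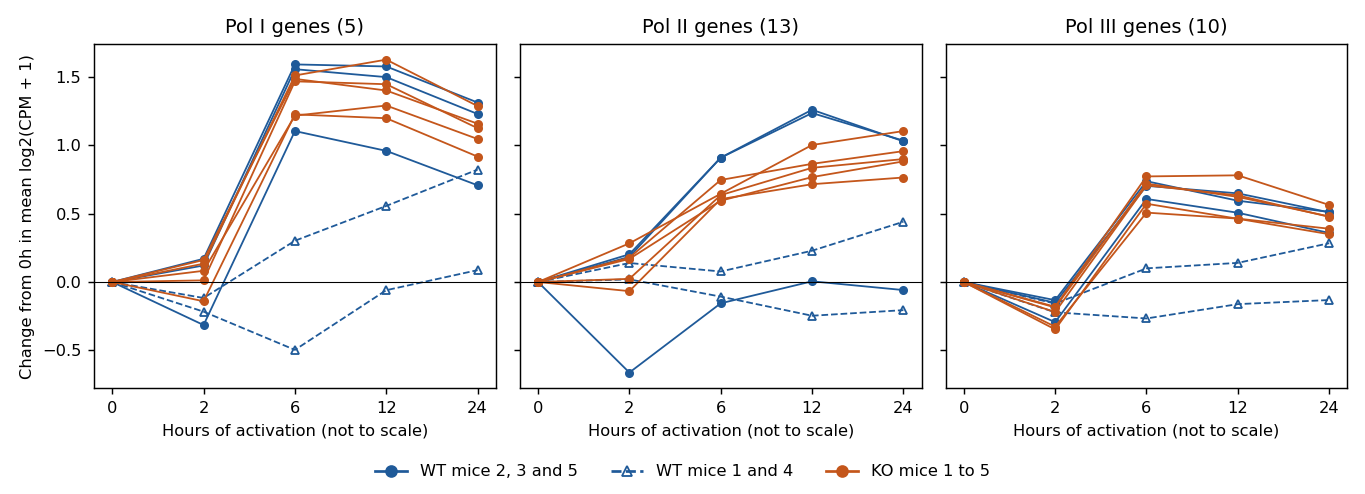
Change from 0h in the mean log2(CPM + 1) of the Polr1 (5 genes), Polr2 (13) and Polr3 (10) genes in each mouse; the horizontal axis is hours of activation, and each line is 1 mouse (KO orange, WT blue, WT mice 1 and 4 dashed with open triangles). The 5 KO mice run together and reach 1.22 to 1.51 for Polr1 at 6h, while the Polr3 lines dip below 0 at 2h in all 10 mice. The Polr3 mean includes Polr3gl, the subunit gene with the largest fall at 2h.

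The time of the highest level also differed by group in KO mice: 8 of 13 Polr2 genes were highest at 24h, whereas 5 of 10 Polr3 genes were highest at 6h and the 5 Polr1 genes at 6h (2) or 12h (3). In WT mice 9 of 13 Polr2 genes were highest at 12h. These are orders of group means and no test was made of them.

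Polr1a and Polr1b encode the catalytic pair of polymerase I (Polr1a, chr6:71909053-71984935; Polr1b, chr2:129100995-129126594; GRCm38). Polr1a measured 112, 134, 106, 124 and 136 CPM in KO mice 1 to 5 at 0h, 87, 133, 109, 117 and 125 at 2h and 350, 416, 352, 376 and 254 at 6h. It then measured 389, 433, 403, 413 and 433 CPM at 12h and 330, 339, 355, 338 and 343 at 24h. Every KO library from 6h on was above every KO library at 0h and 2h. The log2 change at 6h was 1.51 ± 0.26 (SE, adjusted p = 6.46e-06) in KO mice. In WT mice the 0h values were 179, 140, 90.5, 163 and 133 CPM and the 6h values 59.2, 289, 346, 143 and 284. Mice 2, 3 and 5 rose beyond all 0h values, while mice 1 and 4 were below their own 0h levels. The WT change was 0.67 ± 0.26 (SE, adjusted p = 0.0329) with all mice and 1.33 (adjusted p = 2.42e-08) without mice 1 and 4. With the mouse as a block in the fit the WT change of Polr1a did not pass at 6h (adjusted p = 0.102) or at 12h (0.0855), and it was also lost at both times without WT mouse 2, 3 or 5 (adjusted p from 0.137 to 0.37).

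Polr1b had the larger rise of the pair. It measured 69.9, 73.2, 63.2, 74.6 and 94.9 CPM in KO mice at 0h, 39.2, 60.1, 52.8, 61.7 and 57.2 at 2h and 380, 436, 392, 395 and 289 at 6h, so that all KO mice were lower at 2h than at 0h and all were several times higher at 6h. The change at 6h was 2.33 ± 0.33 (SE, adjusted p = 1.97e-07) in KO mice; at 2h it was -0.47 ± 0.31 (SE, adjusted p = 0.238), which did not pass, and -0.50 (adjusted p = 0.000935) in the fit without WT mice 1 and 4. WT values were 144, 76.8, 48.9, 129 and 76.6 CPM at 0h and 44.8, 323, 378, 132 and 319 at 6h, where mouse 1 was far below its 0h level and mouse 4 was near it. The WT change at 6h was 1.33 ± 0.32 (SE, adjusted p = 0.000794) and 2.32 (adjusted p = 6.82e-14) without mice 1 and 4. With only the 10 libraries compared in the fit this WT change did not pass (adjusted p = 0.131). Polr1e, a polymerase I subunit of the initiation and elongation module, measured 37.6, 40.3, 57.6, 42.1 and 43.9 CPM in KO mice at 0h and 98.8, 114, 118, 112 and 115 at 6h. No KO library at 6h overlapped those at 0h, and the change was 1.33 ± 0.21 (SE, adjusted p = 1.75e-06). In WT mice Polr1e measured 51.4, 34.9, 90, 45.5 and 42.1 CPM at 0h and 55.2, 134, 140, 73.7 and 163 at 6h, with a change of 1.10 ± 0.21 (SE, adjusted p = 5.17e-05) and overlap between the groups. That change did not pass with only the 10 libraries compared in the fit (adjusted p = 0.0819). Polr1c and Polr1d, shared with polymerase III, rose by 0.92 and 0.81 at 6h in KO mice (adjusted p = 1.46e-05 and 0.00396). Polr1c had already risen at 2h, by 0.59 ± 0.17 (SE, adjusted p = 0.00376) in KO mice and 0.45 ± 0.17 (SE, adjusted p = 0.0342) in WT mice.

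**Figure D3:**
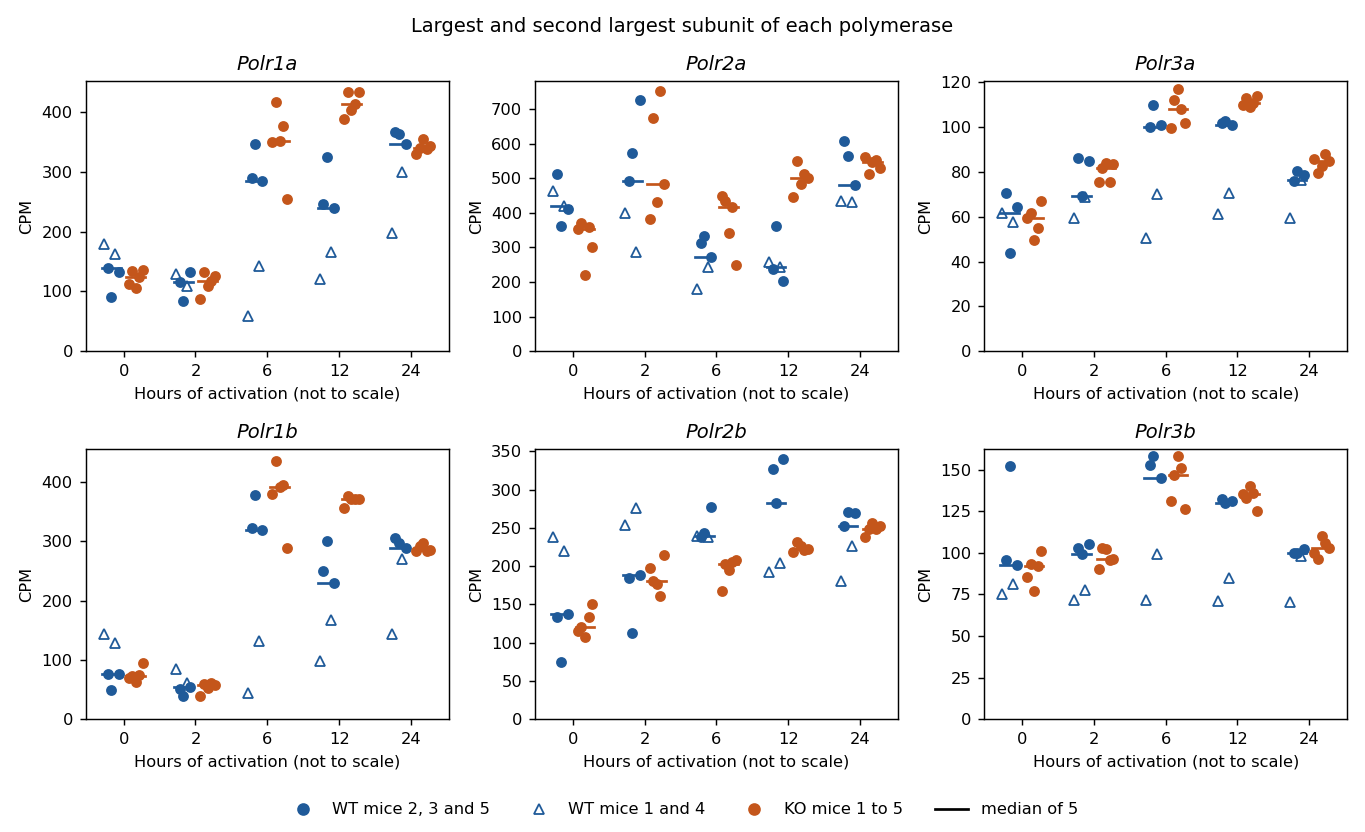
Levels (CPM, linear axes from 0) of the catalytic pair of each polymerase, Polr1a and Polr1b, Polr2a and Polr2b, Polr3a and Polr3b, against hours of activation; each point is 1 library (KO orange, WT blue, WT mice 1 and 4 open triangles) and each bar the median of 5. Polr1b in KO mice rises from 63.2 to 94.9 CPM at 0h to 289 to 436 at 6h, and Polr2a at 12h lies at 446 to 550 in KO mice and 204 to 363 in WT mice.

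The catalytic pair of polymerase II moved apart in WT mice at 6h and 12h, where Polr2a was called lower and Polr2b higher. In KO mice both were called higher at 2h, 12h and 24h, and Polr2b alone at 6h. Polr2a, which carries the heptad-repeat tail that couples transcription to RNA processing (chr11:69733997-69758637), measured 353, 372, 219, 360 and 301 CPM at 0h, 383, 673, 432, 752 and 482 at 2h, 449, 434, 341, 417 and 249 at 6h and 446, 550, 483, 511 and 501 at 12h in KO mice. The 12h libraries lay above all 0h libraries, and the 2h libraries likewise. Changes were 0.76 ± 0.20 (SE, adjusted p = 0.00189) at 2h, 0.24 ± 0.20 (SE, adjusted p = 0.326) at 6h, which did not pass, and 0.63 ± 0.20 (SE, adjusted p = 0.00653) at 12h. In WT mice the values were 463, 513, 361, 421 and 410 CPM at 0h, 179, 312, 332, 244 and 273 at 6h and 257, 239, 363, 244 and 204 at 12h. All 6h libraries were below all 0h libraries, and at 12h 1 library (mouse 3) was level with the lowest at 0h. The WT change was -0.70 ± 0.20 (SE, adjusted p = 0.00439) at 6h and -0.73 ± 0.20 (SE, adjusted p = 0.00292) at 12h, and without mice 1 and 4 it was -0.50 (adjusted p = 0.0571), which did not pass, and -0.72 (adjusted p = 0.00673). By 24h WT values were 433, 606, 565, 430 and 481 CPM, back among or above those at 0h.

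Polr2b (chr5:77310147-77349324), the second largest subunit, rose in KO mice from 115, 120, 108, 134 and 150 CPM at 0h to 168, 203, 195, 206 and 208 at 6h and 238, 249, 256, 248 and 252 at 24h. No 6h library fell below a 0h library. The change was 0.64 ± 0.19 (SE, adjusted p = 0.00562) at 6h and 0.99 ± 0.20 (SE, adjusted p = 4.37e-05) at 24h; the 6h call was lost with library totals (adjusted p = 0.0579). WT values were 238, 133, 74.8, 220 and 137 CPM at 0h and 240, 238, 243, 238 and 277 at 6h: mice 1 and 4, high at 0h, barely changed, and the other 3 rose. The WT change at 6h was 0.62 ± 0.19 (SE, adjusted p = 0.0096), 1.12 (adjusted p = 2.62e-07) without mice 1 and 4, and not past the threshold without WT mouse 5 (adjusted p = 0.069).

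Polr2g, found in polymerase II alone, fell at 2h and 6h in KO mice. It encodes a subunit of the stalk, which with Polr2d contacts the emerging RNA. It measured 67.4, 75.5, 103, 77.5 and 71.4 CPM in KO mice at 0h, 55.6, 42.9, 49.9, 41.9 and 55.2 at 2h, 44.1, 51.1, 53.2, 49.7 and 61.9 at 6h and 101, 102, 102, 90.5 and 97.4 at 24h. Every KO library at 2h and 6h was below every one at 0h, and at 24h values were above those of 0h in all mice but mouse 3. The KO change was -0.69 ± 0.22 (SE, adjusted p = 0.0116) at 2h and -0.60 ± 0.22 (SE, adjusted p = 0.0215) at 6h. At 6h the call was lost when KO mouse 1, 2, 3 or 4 was left out (adjusted p from 0.0518 to 0.109), and at 2h without KO mouse 2, 3 or 4 (0.0511 to 0.082). The WT change was -0.56 ± 0.22 (SE, adjusted p = 0.0498) at 2h and -0.47 ± 0.22 (SE, adjusted p = 0.0838) at 6h; the 2h call was lost without any 1 of the KO mice or WT mouse 2, 3 or 5 (adjusted p from 0.0555 to 0.424). The WT changes without mice 1 and 4 were -1.03 (adjusted p = 0.000864) at 2h and -0.96 (adjusted p = 0.00117) at 6h. Polr2d, the other stalk subunit, rose instead, by 0.71 ± 0.20 (SE, adjusted p = 0.00287) in KO mice and 0.70 ± 0.20 (SE, adjusted p = 0.00418) in WT mice. Polr2c rose in KO mice by 0.89 at 6h and 1.09 at 24h, and Polr2j by 0.65 at 12h (adjusted p = 1.95e-06, 4.75e-08 and 0.00163). With all mice in the fit Polr2i passed in no comparison of times in either genotype, and without WT mice 1 and 4 its WT change at 2h was -1.02 (adjusted p = 0.0428). In WT mice 2, 3 and 5 it measured 11.3, 77.7 and 10.9 CPM at 0h and 13.3, 22.9 and 13.4 at 2h. Of these, mouse 3 alone fell. The KO change of Polr2i at 12h was 0.55 ± 0.32 (SE, adjusted p = 0.142).

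Of the 5 subunits shared by all polymerases, all were called higher at 12h and 24h in KO mice (27.8% and 30.7% of all genes were). In WT mice 4 were higher at 12h and 0 at 24h (19.3% and 19.9%). At 6h, 2 were higher in WT mice (Polr2h and Polr2l, against 20.2%), and at 2h Polr2f was called lower there (16.2%). The WT counts of higher genes without mice 1 and 4 were 3 at 6h, 4 at 12h and 1 at 24h (28.6%, 28% and 32.5%). Polr2f was again lower at 2h (27.7%). In KO mice at 6h, 4 of the 5 were called higher, against 26.8% of all genes. These were Polr2l by 1.84 ± 0.29 (SE, adjusted p = 1.55e-06), Polr2k by 1.51, Polr2h by 1.41 ± 0.28 (SE, adjusted p = 5.82e-05) and Polr2f by 1.24 (adjusted p = 0.00381 for Polr2k and 0.00252 for Polr2f). Polr2e passed at 12h, with 1.13 ± 0.27 (SE, adjusted p = 0.000602), and with the mouse as a block also at 6h (adjusted p = 0.0184, against 0.0625). Polr2h measured 28.7, 28.9, 35.6, 30.9 and 32.3 CPM in KO mice at 0h and 74, 85.2, 94.8, 81.4 and 78.9 at 6h, without overlap. In WT mice it measured 40.7, 21.5, 102, 37.2 and 27.4 CPM and 54.1, 104, 105, 53.7 and 117, with mouse 3 the highest at 0h, and a change of 0.93 ± 0.28 (SE, adjusted p = 0.00651) that was lost without WT mouse 2 or 5 (adjusted p = 0.0836 and 0.0966). Polr2l was low: 3.6, 3.69, 0.94, 4.44 and 3.61 CPM in KO mice at 0h and 9.9, 11.5, 14.1, 13 and 10.2 at 6h, with the lowest value in the KO mouse 3 library at 0h. WT libraries measured 4.13, 3.82, 5.78, 4.98 and 4.12 CPM of Polr2l at 0h and 3.28, 11.3, 13.3, 6.16 and 11.3 at 6h, where mice 2, 3 and 5 were above all 0h values and mouse 1 was below them. Several of these genes share reads with other loci: of the possible 50-base reads, 26.14% of those of Polr2c, 21.61% of Polr2k, 21.05% of Polr2l, 19.71% of Polr2i and 10.12% to 11.51% of Polr1d, Polr2f, Polr2h and Polr2j also occur in other genes, and 26.8% of the exon bases of Polr2i overlap Tbcb, 18.1% of those of Polr2c overlap Dok4 and 15.9% of those of Polr2j overlap Lrwd1, on the opposite strand. How such reads were counted is not given in the sources used here, so the values of these genes are uncertain, and Polr2k had at most 64 reads in a library.

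Polr3a and Polr3b, the catalytic pair of polymerase III, had smaller changes at 6h than the polymerase I pair. Polr3a measured 59.3, 61.7, 49.5, 55.1 and 67 CPM in KO mice at 0h, 75.6, 81.9, 83.9, 75.4 and 83.6 at 2h, 99.8, 112, 117, 108 and 102 at 6h and 85.7, 79.7, 82.6, 88.2 and 85 at 24h. It was above all 0h values at each of those times. The change was 0.45 ± 0.15 (SE, adjusted p = 0.0123) at 2h, lost without KO mouse 3 (adjusted p = 0.0944) or with library totals (0.101), and 0.88 ± 0.15 (SE, adjusted p = 4.56e-06) at 6h. In WT mice Polr3a measured 61.6, 70.8, 44, 57.7 and 64.5 CPM at 0h and 50.6, 100, 110, 70.1 and 101 at 6h, with mouse 1 lower at 6h and the others higher, and a change of 0.53 ± 0.15 (SE, adjusted p = 0.00351) that was lost without WT mouse 3 (adjusted p = 0.126). Polr3b measured 85.6, 93.1, 77, 91.8 and 101 CPM in KO mice at 0h and 131, 147, 158, 151 and 126 at 6h, without overlap. Its change was 0.67 ± 0.17 (SE, adjusted p = 0.00129) in KO mice. In WT mice it measured 75, 95.6, 152, 81.3 and 92.8 CPM at 0h and 71.6, 153, 158, 99.5 and 145 at 6h, with a change of 0.34 ± 0.17 (SE, adjusted p = 0.116), which passed with the mouse as a block (adjusted p = 0.0185) and without mice 1 and 4 (0.42, adjusted p = 0.00323).

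Polr3d (chr14:70438757-70443447) had the largest mean rise at 6h of the genes found in polymerase III alone, leaving the paralogs aside. It measured 22.2, 24.6, 43.2, 27 and 26.7 CPM in KO mice at 0h and 113, 118, 116, 107 and 83.4 at 6h. No library overlapped, and the change was 1.91 ± 0.29 (SE, adjusted p = 1.11e-06). WT values were 33.8, 25.5, 23.8, 33.8 and 22.3 CPM at 0h and 16, 100, 110, 38.4 and 86.2 at 6h, where mouse 1 was below all 0h values, and the change was 1.33 ± 0.29 (SE, adjusted p = 0.000285) and 2.04 (adjusted p = 4.38e-11) without mice 1 and 4. This WT change did not pass with only the 10 libraries compared in the fit (adjusted p = 0.0891). Polr3e (chr7:120917744-120947432), whose product pairs with that of Polr3d, fell first and rose later. KO values were 67.7, 72.2, 63.6, 74.8 and 77.4 CPM at 0h, 31.7, 38.3, 40.9, 42.2 and 41.4 at 2h and 141, 154, 144, 150 and 108 at 6h, in 3 ranges that did not overlap. The KO change was -0.87 ± 0.18 (SE, adjusted p = 0.000134) at 2h and 0.97 ± 0.18 (SE, adjusted p = 2.06e-05) at 6h. WT values were 103, 72.8, 64, 96.3 and 71.1 CPM at 0h and 77.9, 40.2, 32.8, 60.2 and 41.9 at 2h, with a change of -0.68 ± 0.18 (SE, adjusted p = 0.00293) at 2h. At 6h the WT change was 0.39 ± 0.18 (SE, adjusted p = 0.0804) and 0.92 (adjusted p = 2.75e-08) without mice 1 and 4. Polr3f moved the other way early, rising by 0.71 ± 0.15 (SE, adjusted p = 0.000137) at 2h in KO mice and 0.52 ± 0.15 (SE, adjusted p = 0.00538) in WT mice. With all mice in the fit Polr3c passed in no comparison of times in KO mice, and in WT mice it was lower at 2h, by -0.45 (adjusted p = 0.0454). In the fit without WT mice 1 and 4 its KO changes were -0.35 at 2h, -0.21 at 6h and 0.31 at 24h (adjusted p = 0.00145, 0.0433 and 0.0036). Polr3k rose there at 24h by 0.58 ± 0.19 (SE, adjusted p = 0.00999).

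The paralogs Polr3g and Polr3gl exchanged places. Polr3g (chr13:81673843-81711013) measured 15.4, 16.8, 14.5, 17.1 and 19.8 CPM in KO mice at 0h, 18.8, 16.4, 15.8, 18.2 and 16.5 at 2h, 57, 65, 70.7, 66.4 and 56.1 at 6h, 80.3, 72.4, 73.6, 69 and 69.2 at 12h and 44.8, 46.6, 46.6, 43.9 and 46.9 at 24h. It was level at 2h, and every library from 6h on was above every library at 0h and 2h. Changes were 1.91 ± 0.30 (SE, adjusted p = 1.73e-06) at 6h and 2.12 ± 0.31 (SE, adjusted p = 2.93e-07) at 12h. Polr3gl (chr3:96577872-96594181) measured 29.7, 33.1, 56.2, 30.6 and 25.6 CPM at 0h, 8.28, 8.19, 9.47, 9.86 and 6.83 at 2h, 9.18, 6.17, 4.83, 6.76 and 9.1 at 6h, 5.33, 5.93, 4.41, 5.21 and 3.23 at 12h and 7, 7.52, 7.98, 6.31 and 7.15 at 24h. Most of the fall was in place at 2h, when Polr3g was still at its 0h level: the change was -2.04 ± 0.30 (SE, adjusted p = 6.31e-07) at 2h, -2.28 ± 0.30 (SE, adjusted p = 7.45e-08) at 6h and -2.86 ± 0.31 (SE, adjusted p = 1.52e-09) at 12h.

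In WT mice Polr3gl measured 14.3, 31.5, 48.7, 14.7 and 30.7 CPM at 0h, 7.95, 9.65, 10.8, 8.68 and 10.4 at 2h and 14.6, 6.18, 4.28, 10.4 and 5.42 at 6h, and Polr3g measured 19.6, 17.3, 9.73, 19 and 20.1 CPM at 0h, 21.2, 67, 72.5, 32.7 and 87 at 6h and 18.2, 106, 91.3, 35.3 and 106 at 12h. Mice 1 and 4 began with less Polr3gl and ended with less Polr3g than the other 3, in which the exchange was as in KO mice. The WT changes of Polr3gl were -1.56 ± 0.30 (SE, adjusted p = 8.14e-05) at 2h and -1.77 ± 0.30 (SE, adjusted p = 7.89e-06) at 6h, the latter -2.81 (adjusted p = 3.2e-11) without mice 1 and 4. Polr3g changed by 1.70 ± 0.30 (SE, adjusted p = 1.67e-05) at 6h and 2.24 (adjusted p = 1.44e-14) without those mice. Polr3gl fell at all 4 later times in both genotypes. With all mice it was the one subunit gene called lower in both genotypes after 2h, and without WT mice 1 and 4 Polr2g and Polr3c were also called lower in both at 6h.

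On a scale of CPM per kilobase of merged exons, which allows the genes to be compared, the ratio of Polr3g to Polr3gl had a median of 0.21 over the 5 KO mice at 0h (range 0.105 to 0.314). It was 0.814 at 2h (0.678 to 0.978), 3.99 at 6h (2.5 to 5.93), 6.11 at 12h (4.96 to 8.68) and 2.6 at 24h (2.37 to 2.82). Polr3gl was thus the more abundant mRNA in every KO mouse at 0h and 2h and Polr3g in every one from 6h. The sum of the pair per kilobase in KO mice was 26.2 ± 7.23 (SD, n = 5) at 0h, 9.69 ± 0.865 at 2h and 20.5 ± 0.496 at 6h, so it was lowest at 2h. In WT mice the median ratio was 0.266 before activation and 0.681 at 2h, stood at 4.4 by 6h and 6.1 by 12h, and was 2.43 at 24h. WT mouse 1 had 0.589 and 0.587 at 6h and 12h and mouse 4 had 1.27 and 1.58, the lowest values at those times. Polr3g and Polr3gl are separate genes on different chromosomes; none of the 50-base reads of Polr3g and 3.41% of those of Polr3gl occur in another gene.

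**Figure D4:**
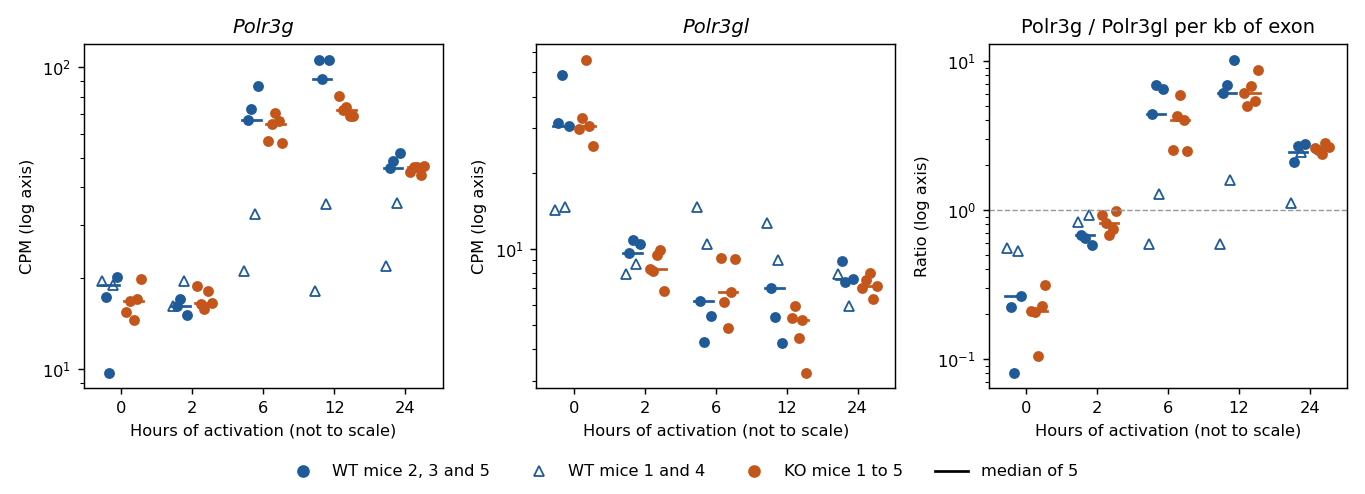
Levels of Polr3g (left) and Polr3gl (centre) in CPM and the ratio of their levels per kilobase of exon (right), all on log axes, against hours of activation; each point is 1 library (KO orange, WT blue, WT mice 1 and 4 open triangles) and each bar the median of 5. The KO ratio crosses 1 (dashed line) between 2h and 6h, from 0.814 to 3.99, and the open triangles of WT mouse 1 stay below 1 until 12h.

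By level per kilobase, Polr2g, Polr2m, Polr2a and Polr2e led the 28 genes in KO mice at 0h (63.4, 62.9, 45.4 and 40.1 CPM per kilobase), and Polr3g, Polr2c, Polr2l and Polr2k were last (4.25, 3.07, 1.97 and 0.923). At 12h Polr2e (87.7), Polr2m (85.1), Polr2a (70.5), Polr2g (67.2) and Polr1b (63.6) led. Polr3gl (3.02) and Polr2k (2.72) were then last.

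Few subunit genes were called between genotypes, most of them at 12h. The counts are to be read against the shares of all genes beside them. At 12h 4 of 28 were higher in KO than in WT mice and 0 lower, against 5.54% and 7.55% of all genes: Polr1a, Polr2a, Polr2m and Polr3d. With WT mice 1 and 4 left out, these 4 and Polr1b were higher, and Polr2b, Polr2d, Polr2j and Polr3g were lower (13.9% and 9.03% of all genes). The count was 2 without KO mouse 4 and 7 without WT mouse 3. At 12h all KO libraries were above all WT libraries for 6 subunit genes (Polr1a, Polr1b, Polr2a, Polr2m, Polr3a and Polr3d), as for 13% of all genes, and below them for Polr3k, as for 11.4%. The same 6 were above without WT mice 1 and 4 (21.6% of all genes), and 12 were then below (25.2%): Polr1c, Polr1e, Polr2b, Polr2d, Polr2e, Polr2g, Polr2h, Polr2i, Polr2j, Polr2l, Polr3g and Polr3k. At 0h 1 gene was lower in KO mice, Polr2c, by -0.47 ± 0.14 (SE, adjusted p = 0.0377) (0 higher; 2.34% of all genes were higher and 5.59% lower). At 2h the count was also 0 higher and 1 lower (2.9% and 8.9%). Without WT mice 1 and 4, 3 were lower at 0h and 0 higher (13.5% and 8.9% of all genes), and 0 passed at 2h (2.24% and 1.86%). Polr2c at 0h did not pass without WT mice 1 and 4 (adjusted p = 0.138), nor without WT mouse 1 or 4 singly or KO mouse 1, 2, 4 or 5. With WT mouse 2 or 5 left out, 5 genes passed at 0h and 4 at 2h, and with WT mouse 3 left out 2 passed at each, all lower in KO mice. At 6h no subunit gene passed edgeR's test (2.53% and 7.59% of all genes did), 9 had an unadjusted p under 0.05, DESeq2 also called 0, and 8 passed without WT mouse 3. At 24h none passed, none had an unadjusted p under 0.05 and DESeq2 called 0, against 0.00752% and 0.0376% of all genes. Without WT mice 1 and 4 no subunit gene passed at 6h (2.31% and 1.85% of all genes) or at 24h (0.0377% and 0.00755%).

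At 12h Polr2a measured 446, 550, 483, 511 and 501 CPM in KO mice and 257, 239, 363, 244 and 204 in WT mice. All KO values were higher, by 0.93 ± 0.20 (SE, adjusted p = 0.00315), and by 0.92 (adjusted p = 0.00156) without WT mice 1 and 4. Its change from 0h to 12h also differed between genotypes, by 1.36 ± 0.28 (SE, adjusted p = 0.00166) as a log2 difference of changes, and this held under every alternative run. Polr2m (chr9:71478437-71485935), whose product binds polymerase II and makes its activity depend on Mediator, measured 134, 134, 196, 160 and 140 CPM at 0h and 201, 201, 212, 211 and 207 at 12h in KO mice. In WT mice it measured 248, 149, 235, 215 and 138 CPM at 0h and 150, 102, 149, 160 and 102 at 12h. KO values were higher than all WT values at 12h, by 0.64 ± 0.17 (SE, adjusted p = 0.0147), a call lost without KO mouse 4 (adjusted p = 0.0508). The difference without WT mice 1 and 4 was 0.84 (adjusted p = 0.00173). Its change from 0h differed by 1.01 ± 0.24 (SE, adjusted p = 0.00705), which was lost with library totals (adjusted p = 0.0531). Polr2a and Polr2m were called higher at 12h than at 0h in KO mice and lower in WT mice; the KO rise of Polr2m, 0.43 ± 0.17 (SE, adjusted p = 0.031), was lost without KO mouse 1, 2, 4 or 5 (adjusted p from 0.07 to 0.105) and with library totals (0.229).

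Polr1a was higher in KO mice at 12h by 0.92 ± 0.26 (SE, adjusted p = 0.0178), with KO values from 389 to 433 CPM and WT values of 121, 247, 325, 166 and 240. The difference without WT mice 1 and 4 was 0.65 (adjusted p = 0.00222). It was lost without KO mouse 2, 4 or 5 or WT mouse 4 (adjusted p from 0.0507 to 0.0562). The difference of changes for Polr1a was 1.12 ± 0.36 (SE, adjusted p = 0.0471), and it did not pass without any 1 of the KO mice or without WT mouse 2, 4 or 5 (0.0552 to 0.133); without WT mice 1 and 4 together it was 0.63 (adjusted p = 0.0298). Polr3d was higher in KO mice by 1.10 ± 0.29 (SE, adjusted p = 0.0121): 94.1, 83.8, 96.1, 91 and 97 CPM against 25.5, 44.9, 62.8, 41 and 40.7. The value without WT mice 1 and 4 was 0.94 (adjusted p = 0.000206). Its difference of changes was 1.06 ± 0.40 (SE, adjusted p = 0.0986), which did not pass, and passed with the mouse as a block (adjusted p = 0.0204) or without WT mice 1 and 4 (0.67, adjusted p = 0.0422).

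In all, 3 subunit genes had changes from 0h to 12h that differed between genotypes, all larger in KO mice (5.54% of all genes were larger and 1.96% smaller). With library totals it was 1 larger and 1 smaller, without WT mice 1 and 4 it was 4 larger (13.3%) and 3 smaller (7.26%), and without WT mouse 3 it was 8. For changes to 2h, 6h and 24h no subunit gene passed edgeR's test (0.015%, 2.47% and 0.0752% of all genes did); 1, 7 and 3 had an unadjusted p under 0.05, and DESeq2 called 0, 1 and 0. At 6h, Polr2a and Polr2m passed with the mouse as a block (adjusted p = 0.0228 and 0.0416), and 5 genes passed without WT mouse 3.

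Gene length moved with the genotype difference at 12h. The 10 subunit genes with over 4000 exon bases had a median KO against WT log2 difference of 0.32, and the 8 with under 2000 had -0.32, where all genes of those lengths had -0.04 and -0.22. Without WT mice 1 and 4 the medians were 0.14 and -0.43, against 0.10 and -0.17 over all genes. At 6h the medians with all mice were 0.31 and -0.234, against -0.027 and -0.099 over all genes. Leaving out WT mice 1 and 4, those at 6h were -0.038 and -0.137, against 0.043 and -0.065. Polr1a and Polr2a are among the longest of the 28 (11871 and 7067 exon bases), and Polr2m and Polr3d have 2424 and 2854. The part of length in the difference was not tested.

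**Figure D5:**
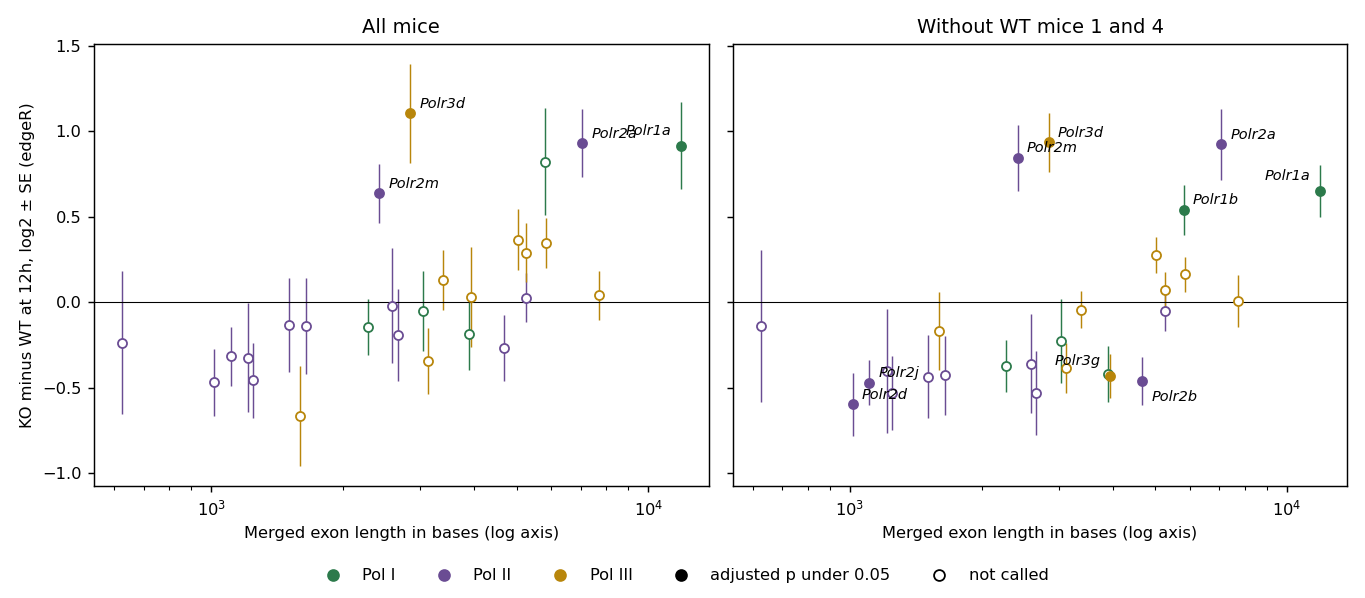
KO against WT log2 difference at 12h (vertical axis, bars 1 SE) of the subunit genes reported here against merged exon length in bases, with all mice (left) and without WT mice 1 and 4 (right); filled points have an adjusted p under 0.05. Polr2a is the highest point with a filled symbol among the long genes in both panels (0.93 and 0.92), and the short genes lie mostly below 0.

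The proteins that load, assist and assemble the polymerases were described from lists of their genes. The lists also hold polymerase I subunits with other symbols (Cd3eap, Twistnb and Znrd1), the polymerase III subunit Crcp and the mitochondrial polymerase Polrmt. Of 13 tested genes in the polymerase I list, 8 rose and 0 fell at 6h in KO mice, and 7 rose and 1 fell in WT mice (8 and 2 without WT mice 1 and 4). Over all genes the shares at 6h were 26.8% higher and 22.4% lower in KO mice, 20.2% and 19.7% in WT mice, and 28.6% and 31.2% in WT mice without mice 1 and 4, and the counts of the other lists at 6h are to be read against the same shares. Rrn3, which brings polymerase I to its promoter, went from a KO range of 61.2 to 82.7 CPM to one of 171 to 209, a change of 1.40 ± 0.16 (SE, adjusted p = 4.36e-09), against 0.66 ± 0.16 (SE, adjusted p = 0.000943) in WT mice and 1.21 (adjusted p = 1.01e-10) without WT mice 1 and 4. Cd3eap, whose product pairs with that of Polr1e, went from 16.0 to 28.1 CPM to 87.5 to 117 in KO mice, with a change of 2.27 ± 0.30 (SE, adjusted p = 8.47e-08). Taf1d and Ddx21 changed by 1.43 and 1.98 (adjusted p = 6.41e-08 and 3.29e-07). Of 48 polymerase II initiation and elongation factors, 25 rose and 1 fell in KO mice and 14 rose and 3 fell in WT mice (28 and 3 without WT mice 1 and 4). Examples in KO mice were Gtf2e1, a TFIIE subunit, at 1.45 ± 0.23 (SE, adjusted p = 1.39e-06), Larp7, which holds P-TEFb in its inactive particle, at 1.09 ± 0.16 (SE, adjusted p = 3.15e-07), Ccnt1, the P-TEFb cyclin, at 1.00 and Cdk7, the TFIIH kinase, at 0.75 (adjusted p = 2.58e-06 and 4.9e-07).

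Of 18 polymerase III factors, 10 rose and 2 fell at 6h in KO mice and 6 rose and 3 fell in WT mice (10 and 4 without WT mice 1 and 4). The WT share of lower genes, 3 of 18, was near that of all genes (19.7%). Snapc4 and Snapc1, subunits of the complex that marks small nuclear RNA promoters, changed in KO mice by 1.39 ± 0.22 (SE, adjusted p = 1.55e-06) and 0.65 ± 0.12 (SE, adjusted p = 1.42e-05). Gtf3c4, a TFIIIC subunit, changed by 1.32 and Brf2 by 0.81 (adjusted p = 5.44e-05 and 2.73e-05). At 12h Snapc1 was lower in KO than in WT mice, at 27.9 to 30.6 against 45.0 to 64.5 CPM, with no overlap and a difference of -0.94 ± 0.12 (SE, adjusted p = 2.66e-06). Its KO range was already below the WT range at 0h, at 20.5 to 24.8 against 27.0 to 43.2 CPM. The same held at 6h (35.2 to 37.4 against 44.5 to 64.8) and 24h (20.9 to 23.6 against 39.9 to 45.0). At 2h the ranges overlapped (49.1 to 60.8 against 52.8 to 78.5). Of 20 assembly factors and enzymes that act on the Polr2a tail, 7 rose and 2 fell in KO mice, and 1 rose and 5 fell in WT mice (6 and 4 without WT mice 1 and 4). The AAA+ assembly proteins Ruvbl1 and Ruvbl2 rose in KO mice by 2.06 ± 0.35 (SE, adjusted p = 4.6e-06) and 1.47 ± 0.31 (SE, adjusted p = 0.000109), and Gpn1, which acts in nuclear import of polymerase II, by 1.29 ± 0.24 (SE, adjusted p = 1.9e-05). Ctdsp1, a small phosphatase of the tail, changed by -1.15 ± 0.17 (SE, adjusted p = 4.7e-07) in KO mice and -1.79 ± 0.17 (SE, adjusted p = 1.12e-10) in WT mice. At 12h, KO against WT calls were 1 higher and 1 lower of the polymerase I factors, 5 and 5 of the polymerase II factors, 1 and 2 of the polymerase III factors and 4 and 0 of the assembly factors and tail enzymes, where 5.54% of all genes were higher and 7.55% lower. In the same order, the counts without WT mice 1 and 4 were 2 and 3, 9 and 7, 3 and 2, and 7 and 0, where 13.9% and 9.03% of all genes were.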

How the data were processed

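Splenic CD8+ T cells of 5 WT and 5 KO mice at 5 times gave 50 libraries, sequenced from TruSeq stranded mRNA libraries as single 50-base reads, per the labels' protocols. The authors deposited 1 table of raw read counts per gene, made with STAR 2.4 and featureCounts 1.4.6 on GRCm38 after CASAVA 1.8.2, per the submitters' processing notes. The annotation release, the strand setting and the treatment of reads that match several genes are not given in the sources used here. Each column was matched to its library by name and none was left out. Of 21647 Ensembl identifiers 21583 were matched to a symbol, and 64 were not. The members and all gene lists were chosen with earlier results of these data known, as was the choice to repeat each comparison without WT mice 1 and 4.

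Counts were tested with edgeR 4.0.16 in R 4.3.3 (filterByExpr with a minimum count of 10, TMM scaling, quasi-likelihood F test) in 1 model of 10 groups over all 50 libraries, which left 13294 genes and 40 residual degrees of freedom. Without WT mice 1 and 4 the filter left 13253 genes. P-values were adjusted by the Benjamini-Hochberg method over all genes tested within each comparison, and called means an adjusted p under 0.05. The tests compare each time with 0h, KO with WT at each time, and the change from 0h between genotypes. The code was tested on simulated counts. The model takes libraries of 1 mouse as independent. The labels give the same mouse at all times, and same-numbered libraries of a genotype deviated together (mean correlation 0.548 in WT mice and 0.334 in KO mice, against -0.016 across genotypes). A fit with the mouse as a block was therefore also run, and it is given for some of the calls that it changed. Group levels are means of log2(CPM + 1).

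Members are named apart from 1, which enters the counts and group means and is not reported here. Values in every library are given for the catalytic pairs, for Polr3g and Polr3gl, for up to 2 members per group with the largest rise and 1 with the largest fall at 6h (mean of WT and KO), and for up to 4 with the smallest p between genotypes; those of other members were chosen for their role after values were seen. Of each list of partner genes, the 4 with the smallest p at 6h in KO mice are named. Alternatives were other scalings (RLE, library totals), no low-count filter, DESeq2 1.42.0, only the 10 libraries compared, limma 3.58.1 with the mouse as a random effect, and each mouse left out. Symbols, exon lengths and shared reads come from GENCODE annotation of GRCm38, and levels per kilobase use merged exons. Depth limits Polr2k, with 0 to 64 reads per library. The genotype labels were not checked against the counts here.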

Additional observations from a re-analysis of the deposited data

Results flagged for a closer look

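A screen covered 170 groups of 5 libraries: the members chosen by rule for values in every library, and the group means, by genotype and time. In 18 of them the gap of a library to its nearest neighbour, as a share of the group's range, exceeded 0.71. Chance alone gives about 1 in 20. The other members were not screened. Among those, WT mouse 3 at 0h had 317 CPM of Polr2e and 246 of Polr1d, where the other WT mice had 77 to 107 and 65.1 to 92. It also had 144 CPM of Polr2f and 77.7 of Polr2i, where the others had 25.8 to 57.8 and 10.9 to 31.3. WT mouse 1 at 24h was low for Polr1b (144 CPM, nearest 270; share 0.773), Polr1e (49.2 and 66.2; 0.73), Polr2h (32.9 and 63.9; 0.78), Polr3a (59.5 and 76.2; 0.806), Polr3b (70.6 and 97.8; 0.863) and Polr3d (34.1 and 63.9; 0.731). The same library was low for the mean log2 level of the Polr1 genes (6.76, nearest 7.36; 0.893), the Polr2 genes (5.54 and 6.0; 0.864) and the Polr3 genes (5.47 and 5.86; 0.823). WT mouse 3 at 0h was high for Polr2g (192 CPM, nearest 96.6; 0.739), Polr2h (102 and 40.7; 0.762) and Polr3b (152 and 95.6; 0.732) and low for Polr3g (9.73 and 17.3; 0.733). KO mouse 3 at 0h was high for Polr2g (103 and 77.5; 0.718), Polr3d (43.2 and 27.0; 0.772) and Polr3gl (56.2 and 33.1; 0.757) and low for Polr2l (0.94 and 3.6; 0.761). WT mouse 5 at 6h was high for Polr2b (277 and 243; 0.869).

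The change from 0h to 12h was larger in KO than in WT mice for Polr1a (difference of log2 changes 1.12), Polr2a (1.36) and Polr2m (1.01), by edgeR's test of that difference (adjusted p = 0.0471, 0.00166 and 0.00705). In the 0h libraries of WT mouse 3 and KO mouse 3 the 8 members with under 2000 exon bases were high for their group (median log2 deviation 0.53 and 0.45) and the 10 with over 4000 were low (-0.35 and -0.21); the part of this in the flagged values was not tested.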

How the results depend on the processing

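Counts of subunit genes called, with the value of the report first, moved as follows. With only the 10 libraries compared in the fit: WT 2h 7 to 0, WT 6h 19 to 2, WT 12h 19 to 2, WT 24h 11 to 5, KO 2h 9 to 15, KO against WT 0h 1 to 0, 2h 1 to 0 and 12h 4 to 9. Without WT mice 1 and 4: WT 2h 14, KO 2h 15, KO against WT 0h 3, 2h 0 and 12h 9, and 12h difference of changes 3 to 7. Without WT mice 1 and 4 and with the mouse as a replicate block, chosen after seeing the data: WT 2h 13, WT 24h 18, KO 2h 15, and difference of changes 1 at 6h (0 in the report) and 7 at 12h. With the replicate block alone the difference of changes at 6h gave 2, and no other count moved by over 1.5 times (KO 6h 22, WT 6h 20). KO against WT with the mouse as a random effect in limma gave 0 at 0h, 0 at 2h and 1 at 6h, and with mouse numbers paired across genotypes, which share only a number, 0 at 2h. KO against WT at 0h was 2 with DESeq2 and 0 with RLE factors, library totals, no low-count filter, or without the 0h libraries of WT mouse 3 and KO mouse 3 (chosen after seeing the data). At 2h it was 0 with RLE factors or no filter, 2 with library totals and 3 without those 0h libraries. The difference of changes at 6h was 1 with DESeq2, and WT 2h was 3 with no filter.

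Leaving out each mouse in turn gave 3 to 10 at WT 2h, 12 to 23 at WT 6h, 12 to 23 at WT 12h, 7 to 15 at WT 24h, 6 to 15 at KO 2h, 20 to 22 at KO 6h, 23 to 25 at KO 12h and 23 to 25 at KO 24h. KO against WT ranged from 0 to 5 at 0h, 0 to 4 at 2h, 0 to 8 at 6h and 2 to 7 at 12h, and the difference of changes from 0 to 5 at 6h, 2 to 8 at 12h and 0 to 1 at 24h. No value of a member described in every library changed sign under these alternatives where it was called. With library totals the median over all genes tested shifted by -0.169, -0.163, -0.183 and -0.159 at 2h, 6h, 12h and 24h on the log2 scale in KO mice and by -0.22 for the 12h difference of changes, and RLE factors by -0.116 at 24h in KO mice; KO calls at 6h were then 18 higher and 3 lower with library totals. The cause of these shifts was not tested. Depth limits Polr2k and Polr2l most.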
